A study of Mus musculus with 31 samples.

Results

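The transcripts described here come from 9 genes of central nervous system myelin, namely Mbp, Mog, Mag, Mobp, Cnp, Cldn11, Mal, Ugt8a and Opalin, out of 48709 genes listed for each mouse. They were chosen by name, with earlier results of these data known. All 9 were present in every mouse and passed the filter on low counts that left 17428 genes for testing. RNA from the basolateral amygdala (BLA), with left and right punches of a mouse pooled, was sequenced by QuantSeq, which reads the 3′ end of polyadenylated transcripts. Since 1 transcript gives reads at its end alone, counts were not divided by gene length, and levels are given as CPM, the read counts after scaling to a common library size. There were 16 WT mice and 15 CYFIP1 OE mice, all C57BL/6N, and the CYFIP1 OE mice carried a bacterial artificial chromosome with human CYFIP1, integrated after pronuclear injection, beside their own Cyfip1. The transgenic lines, each derived from 1 founder, are labelled 1 and 3. The line labelled 1 had 8 WT mice (4 females and 4 males) and 7 CYFIP1 OE mice (4 females and 3 males), and the line labelled 3 had 4 females and 4 males of each genotype. WT mice were 58 to 61 days old and CYFIP1 OE mice 58 to 77 days old, and the 4 mice aged 77 days were all CYFIP1 OE mice of the line labelled 1. Mice are numbered within their genotype, and the numbers pair no mice.

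Oligodendrocytes wrap axons with many turns of their plasma membrane and press most of the cytoplasm out of it, which leaves compact myelin with its own set of proteins and lipids. The transcripts of these proteins are abundant in white matter and rise together when an oligodendrocyte matures, so their sum is commonly read as a measure of how much myelinating tissue a sample holds. The BLA lies between fibre tracts, and the punches of this study were placed by eye with the surrounding white matter as a guide.

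The members lie on 8 chromosomes of the GRCm38 build. Mbp, myelin basic protein, which holds the cytoplasmic faces of compact myelin together, is at chr18:82475146-82585637 on the plus strand. Mobp, a small basic protein of the same compartment, is at chr9:120149707-120181484 on the plus strand. Mog, an immunoglobulin-domain protein of the outermost myelin surface, is at chr17:37010743-37023398 on the minus strand, and Mag, an adhesion protein of the membrane next to the axon, is at chr7:30899176-30914873 on the minus strand. Cnp, the cyclic nucleotide phosphodiesterase that keeps cytoplasmic channels in myelin open, is at chr11:100574904-100591729 on the plus strand. Cldn11, the claudin of myelin tight junctions, is at chr3:31149920-31164324 on the plus strand, and Ugt8a, the galactosyltransferase that makes the lipid galactocerebroside, is at chr3:125865271-125938619 on the minus strand. Mal, a raft-associated membrane protein, is at chr2:127633226-127656695 and Opalin, a glycoprotein of oligodendrocytes, is at chr19:41061710-41077113, both on the minus strand. The 3′ end of Cnp overlaps Dnajc7 on the opposite strand, which had at most 338 reads in a mouse against 446 to 3972 for Cnp, and a pseudogene on the opposite strand within Mbp had at most 63 reads in a mouse. Whether the counting used strand is not given in the sources used here, so the reads of such pairs are uncertain. A gene that overlaps Mobp on the same strand, Gm38642, was not among the genes listed for the mice, so it has no count of its own.

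The libraries held 5286708 to 8685308 counts on genes (median 7387585), of which 4 features unrelated to myelin took from 25.3% to 47.0%. The library of CYFIP1 OE 1 stood apart, from a male of the line labelled 3 whose profile correlated least with the others (connectivity Z-score -4.74, the next lowest being -1.18). It is kept in the values below, and some of them are also given without it. Mouse Cyfip1, which is not the transgene, ran from 23.4 to 39.6 CPM in WT mice (median 35.0 CPM) and from 25.2 to 37.7 CPM in those with the transgene (median 33.8 CPM), and does not test the genotype labels. Markers of peripheral myelin were near 0, as Prx was at 0 in 25 mice and Pmp2 in 26, and Ncmap had a median of 1.80 CPM.

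The levels of the members moved together from mouse to mouse, and the promoters of 8 of them were searched for short words, on both strands of the 250 bases before each RefSeq start site (GRCm38.p6). Mbp was not included. The SOX word ACAAAG, part of the sequence that SOX10 and its relatives bind, was present in 5 of the 10 promoters of these 8 genes. Over all 32851 promoters of that length the share was 16.5%. Mag had 3 promoters, and the 2 with the word overlap and hold the same site, so that by gene the count was 4 of 8. The related word ACAATG was present in 0 of 10 and in 10.7% of promoters. Of the E-box words, CAGATG was present in 1 of 10 (14.4% of all promoters) and CAGCTG in 0 of 10 (13% of all promoters), and TATAAA in 0 of 10 (12.4% of all promoters). For each of the 4 genes with a word, 1 promoter is shown as the 200 bases that end at position -51 from the start site, upstream of the annotated transcripts, 5′ to 3′ on the strand of the gene, with the words or their reverse complements in capitals.
Mobp, chr9:120149492-120149691, plus strand: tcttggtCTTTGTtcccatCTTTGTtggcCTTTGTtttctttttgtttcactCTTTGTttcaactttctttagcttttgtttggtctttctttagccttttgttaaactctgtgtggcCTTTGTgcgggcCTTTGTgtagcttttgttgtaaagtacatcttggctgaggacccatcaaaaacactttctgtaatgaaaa
Cnp, chr11:100574689-100574888, plus strand: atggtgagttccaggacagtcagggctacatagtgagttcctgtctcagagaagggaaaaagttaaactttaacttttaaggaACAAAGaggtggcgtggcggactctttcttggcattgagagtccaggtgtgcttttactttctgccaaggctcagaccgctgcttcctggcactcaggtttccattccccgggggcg
Mag, chr7:30914914-30915113, minus strand: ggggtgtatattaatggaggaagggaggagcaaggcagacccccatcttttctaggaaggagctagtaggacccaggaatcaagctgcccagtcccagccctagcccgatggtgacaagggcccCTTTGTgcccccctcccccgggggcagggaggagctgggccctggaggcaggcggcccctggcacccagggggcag
Opalin, chr19:41077164-41077363, minus strand: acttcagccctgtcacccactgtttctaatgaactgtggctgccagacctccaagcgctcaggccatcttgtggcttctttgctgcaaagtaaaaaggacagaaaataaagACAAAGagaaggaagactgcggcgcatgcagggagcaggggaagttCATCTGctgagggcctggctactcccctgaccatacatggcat
The Mobp promoter held the reverse complement of ACAAAG at 6 places, from position -243 to position -120 relative to the start site, and the other 3 promoters held the word once each, on either strand. The Opalin promoter also held CAGATG on the opposite strand. These are matches of letters, with no measurement of binding behind them.

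The myelin genes spanned a wide range between mice of the same genotype. The 9 members together had a median of 1604 CPM, with 735 CPM in the lowest mouse (CYFIP1 OE 7) and 5140 CPM in the highest (WT 1). As a share of all counts they took between 0.0684% (CYFIP1 OE 1, whose library had the lowest scaling factor, 0.747) and 0.584% (WT 1). Fewer oligodendrocytes and less RNA per oligodendrocyte cannot be told apart in such punches.

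Mbp gave the most reads and Opalin the fewest. On the CPM scale, Mbp had a median of 868 CPM over the 31 mice (384 to 2744), Mobp 249 CPM (102 to 697), Cnp 146 CPM (71.7 to 403), Mag 112 CPM (42.3 to 352), Cldn11 106 CPM (40.3 to 428) and Mal 120 CPM (55.9 to 272). Mog had a median of 34.5 CPM (11.6 to 127.0), Ugt8a 31.9 CPM (6.91 to 65.7) and Opalin 15.6 CPM (3.86 to 51.6). Mbp was above Mobp and Mobp above Cnp in 31 of 31 mice, with median ratios of 3.76 and 1.62. Cnp, Mag, Cldn11 and Mal formed a closer series, in which Cnp was above Mag in 28 of 31 mice, Mag above Cldn11 in 22 and Cldn11 above Mal in 15, so that the last of these pairs had no order. Mal was above Mog in 31 of 31 mice, Mog above Ugt8a in 28 and Ugt8a above Opalin in 29. Mbp made up between 42.2% and 56.1% of the CPM of the 9 members in each mouse.

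**Figure D1:**
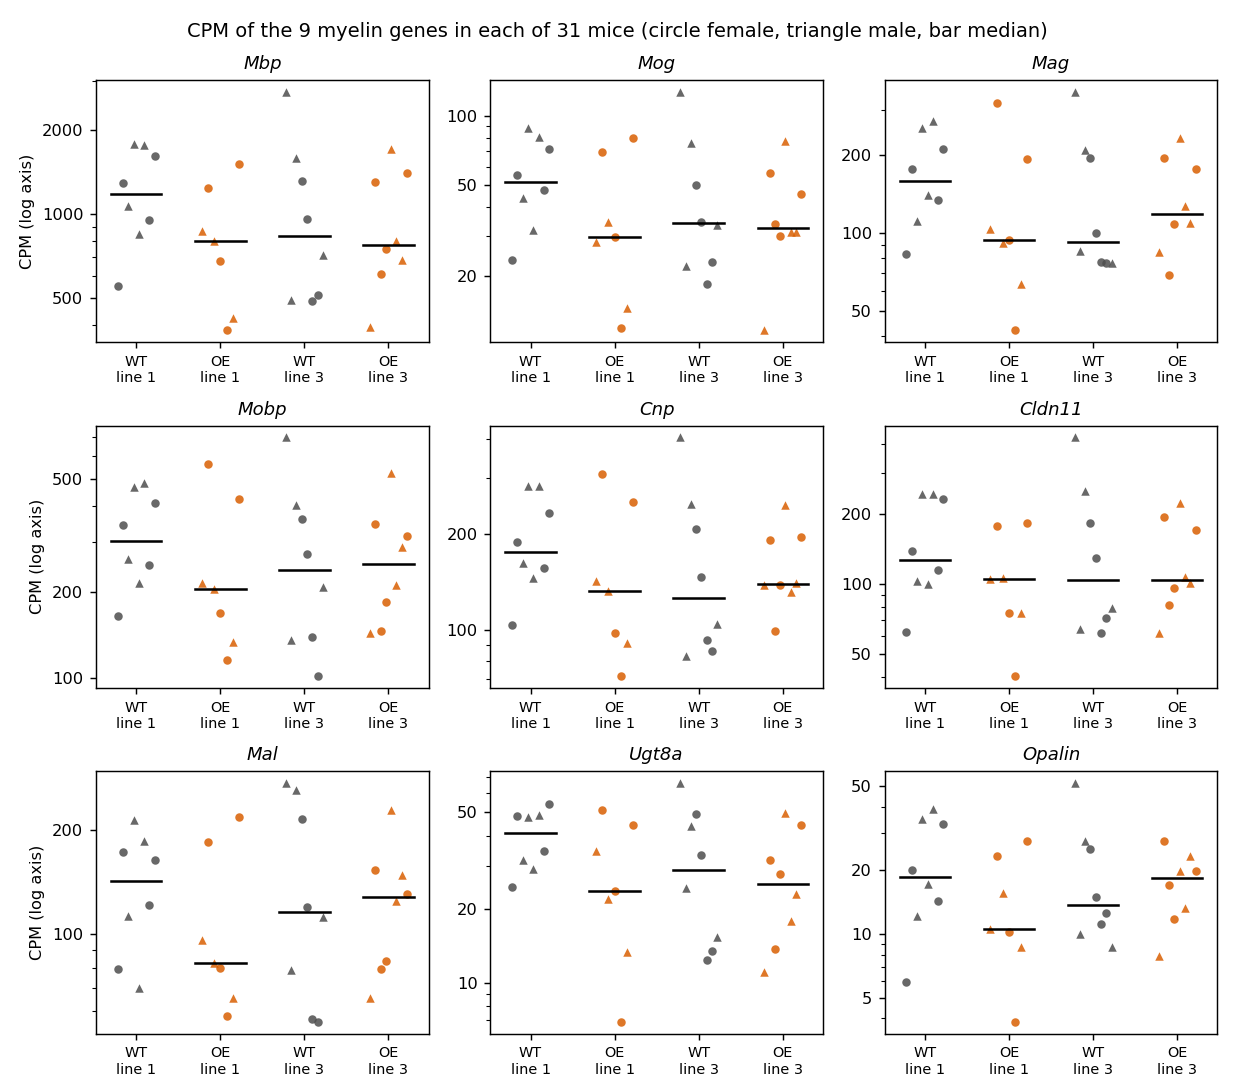
CPM of each myelin gene (log axis) in each mouse, by genotype and line, with circles for females, triangles for males and a bar at the median of the group. The points of WT and CYFIP1 OE mice overlap in both lines for every gene, and WT 1, a male of the line labelled 3, is the highest point in all 9 panels.

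Relative to the number of reads, the range was large. The lowest Opalin count was 24 reads, for which counting alone gives a coefficient of variation of 20.4%, and the lowest Mbp count was 2194 reads, for which it gives 2.13%, while over mice the coefficient of variation was 57.4% for Opalin and 52.2% for Mbp. The SD of log2 CPM over the 31 mice was 0.64 for Cnp, 0.70 for Mal, 0.74 for Mobp and Mbp, 0.76 for Mag, 0.79 for Cldn11, 0.81 for Ugt8a, 0.82 for Opalin and 0.86 for Mog. Its median over the members was 0.76, against 0.52 over all genes tested and 0.30 over the 6035 genes with a mean CPM at least that of Opalin (18.7 CPM). Each member varied more than at least 94.4% of those 6035 genes. The spread was also present within each genotype, with a median SD of 0.76 among WT mice and 0.72 among the CYFIP1 OE mice, and within each line, at 0.76 in the line labelled 1 and 0.78 in the line labelled 3.

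The members' levels varied together from mouse to mouse. Over the 36 pairs of members, Pearson's r of log2 CPM across the 31 mice was between 0.79 (Ugt8a with Opalin) and 0.97 (Mbp with Mog), with a median of 0.91, and Spearman's rho had a median of 0.91. Over all pairs of tested genes the median r was -0.00075, and 0.0413% of pairs had an r at least as high as the lowest pair of members. These correlations share the libraries and their scaling, and are descriptions without a test. The first principal component held 91.8% of the standardized variance of the 9 members.

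**Figure D2:**
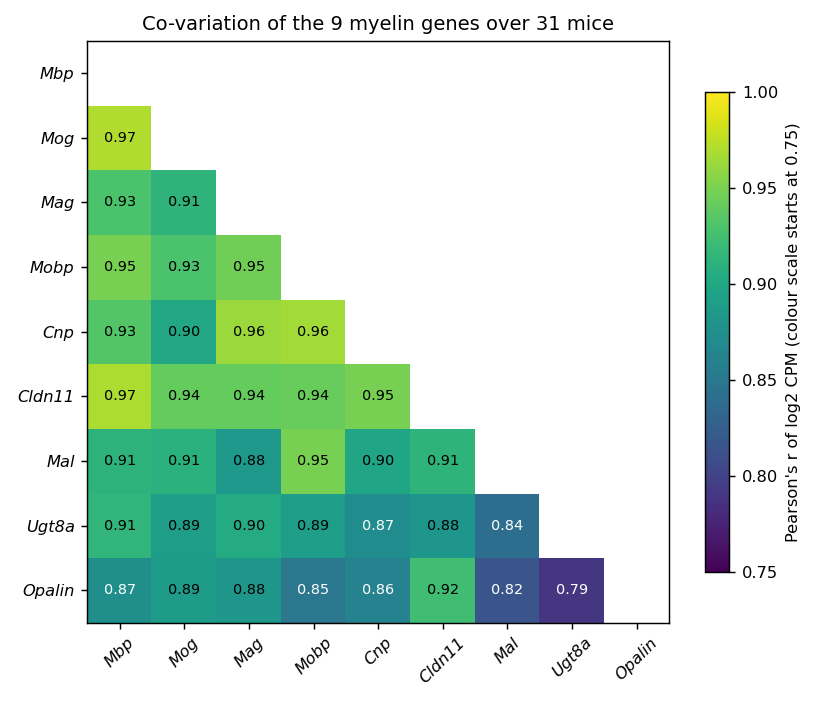
Pearson's r of log2 CPM over 31 mice for each pair of the 9 myelin genes, with a colour scale that starts at 0.75. The row of Opalin and the row of Ugt8a hold the lowest values, down to 0.79 for their own pair, and the pairs of Mbp with Mog and with Cldn11 reach 0.97.

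The co-variation was present in each subset of the mice. The median r over the pairs was 0.93 in WT mice alone, 0.90 in CYFIP1 OE mice alone, 0.94 in the line labelled 1 and 0.90 in the line labelled 3. It was 0.89 without the 2 mice whose levels lay farthest from the median and 0.91 after sex, line and genotype were removed by linear regression. On the CPM scale it was also 0.91.

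Each member was also set against the mean standardized log2 CPM of the other 8. The r was 0.98 for Cldn11, 0.97 for Mbp and Mobp, 0.96 for Mag, Cnp and Mog, 0.93 for Mal, 0.91 for Ugt8a and 0.89 for Opalin. The lowest values belonged to the 2 members with the fewest reads. Mog, at a median of 259 reads against 236 for Ugt8a, still had the higher r. The part of read depth in these values was not tested. Fitted on the mean log2 CPM of the other 8, Mog had the steepest slope, 1.15, and Cnp the flattest, 0.82, so that Mog changed more and Cnp less than the rest between the same mice. The remaining SD around these lines was between 0.16 (Mbp) and 0.37 (Opalin) on the log2 scale.

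The share of single members in the sum still differed between mice. Mbp held 42.2 to 56.1% of the members' sum, Cnp 7.44 to 15.1%, Mal 4.39 to 9.54%, Mog 1.27 to 2.92% and Ugt8a 0.941 to 2.46%, and the CPM ratio of Ugt8a to Opalin ran from 0.80 to 4.17. The highest share of Cnp and the lowest share of Mog were those of CYFIP1 OE 1. Distances of single mice from the fitted line are given on the log2 scale. In CYFIP1 OE 1, the library that stood apart, the distance was 0.70 for Cnp and -0.71 for Mog. In CYFIP1 OE 4, a female of the line labelled 1 aged 77 days, it was 0.56 for Mag and 0.39 for Mobp, and -0.42 for Mbp and -0.32 for Cldn11. It was -0.67 for Mal in WT 6, -0.53 for Mobp in WT 2 and -0.77 for Opalin in WT 10, where Ugt8a was at 0.60. In CYFIP1 OE 11 it was 0.75 for Opalin and 0.52 for Mog, and in CYFIP1 OE 7 it was -0.55 for Ugt8a.

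**Figure D3:**
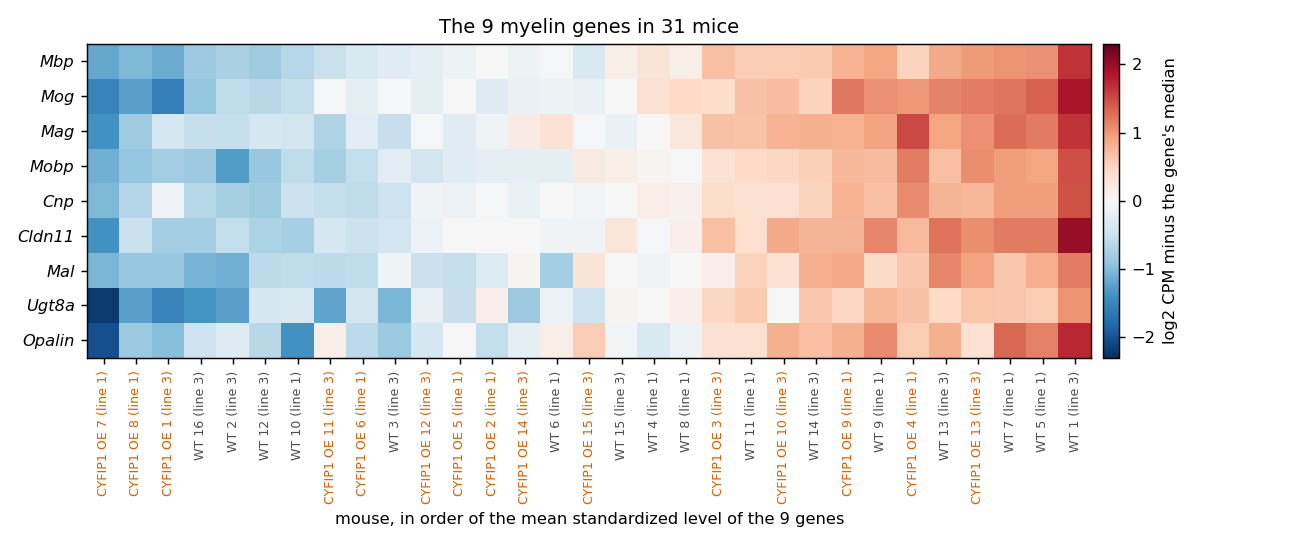
log2 CPM of each myelin gene minus its own median, in 31 mice placed from left to right by the mean standardized level of the 9 genes, with mouse names in orange for CYFIP1 OE and grey for WT. The 9 rows change colour together from CYFIP1 OE 7 at the left to WT 1 at the right, and both genotypes and both lines occur at each end of the order.

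The order of the mice followed no label closely. Of the variance of the mean standardized level of the members (their score), genotype took 4.12%, sex 0.825%, line 0.169%, age 2.29% and the total count of the library 16.0%, each alone. Mice whose names share a prefix form 10 name groups, which took 31.5%. With few mice to each, 10 groups among 31 mice take a large share under any grouping, so this value is not comparable with the others. The widest contrast lay within 1 name group of the line labelled 3, with 3 WT mice and 1 CYFIP1 OE mouse. Its members' sums ran from 918 CPM in CYFIP1 OE 1, through 956 CPM in WT 2 and 1349 CPM in WT 3, to 5140 CPM in WT 1. WT 1 and WT 2, at opposite ends, had the deepest libraries of the series, with 8671788 and 8685308 reads. A name group of 7 WT mice of the line labelled 1 ran from 1102 to 3424 CPM, with a median of 1911 CPM.

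The genotype comparison asks whether the members differ between CYFIP1 OE and WT mice beyond this spread. For Mbp, the 16 WT mice had a lowest value of 488 CPM, a median of 1015 CPM and a highest value of 2744 CPM, and the 15 CYFIP1 OE mice 384, 802 and 1714 CPM. The groups overlapped over most of their range, and 10 of the 15 transgenic mice lay under the WT median. The fitted log2 fold change of Mbp was -0.35 ± 0.25 (SE), a ratio of 0.787 with a 95% interval of 0.552 to 1.12, and an adjusted p of 0.999 by edgeR's quasi-likelihood test.

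The other members gave the same picture. Mog had 18.4, 45.6 and 127.0 CPM (lowest, median and highest) in WT mice and 11.6, 31.2 and 80.2 CPM in CYFIP1 OE mice. Opalin had 5.94, 16.1 and 51.6 CPM against 3.86, 15.6 and 27.6 CPM, and Ugt8a 12.4, 34.1 and 65.7 CPM against 6.91, 23.7 and 50.9 CPM. Cldn11 had 61.7, 122 and 428 CPM against 40.3, 105 and 223 CPM. In each of these genes the single highest value was that of WT 1 and the lowest that of a CYFIP1 OE mouse, with overlap between them. Mag had 76.5, 137 and 352 CPM in WT mice against 42.3, 109 and 320 CPM in CYFIP1 OE mice, and Cnp 82.8, 160 and 403 CPM against 71.7, 139 and 310.0 CPM. Mobp had 102, 267 and 697 CPM against 116, 213 and 563 CPM, and Mal 55.9, 121 and 272 CPM against 58.2, 95.8 and 227 CPM. For Mobp and Mal the lowest mouse was WT 2, so that WT mice held both ends of the range.

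The log2 fold change was below 0 for all 9 members, from -0.17 ± 0.22 (SE) for Cnp to -0.38 ± 0.28 for Opalin, with a median of -0.35 beside a median of -0.0053 over all genes tested. A value below 0 was found for 51.3% of the 17428 genes. The members share their mouse-to-mouse variation, so that their 9 signs are not 9 separate observations. By edgeR, 0 of 9 members had an adjusted p under 0.05, as did 0% of all genes, and 0 of 9 had an unadjusted p under 0.05, against 4.3% of all genes. DESeq2 also called 0 members. The upper ends of the 95% intervals for the ratio of CYFIP1 OE to WT were between 1.11 (Ugt8a) and 1.27 (Mobp) and the lower ends between 0.516 (Mog) and 0.648 (Cnp).

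Without WT 1 the median log2 fold change of the members was -0.19, and over the other mice left out singly it stayed between -0.43 and -0.27. With 5 surrogate variables, estimated from the counts, as added terms it was 0.074, with 2 of 9 members below 0. These 5 variables together took 75.4% of the variance of the members' score, and genotype 4.12%. The 2 shares are not comparable, because the members were among the counts from which the 5 variables were estimated, and genotype is a single label.

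In the line labelled 1 the differences were the larger of the 2 lines in value. Mbp ran from 554 to 1789 CPM in the 8 WT mice (median 1181 CPM) and from 384 to 1508 CPM in the 7 CYFIP1 OE mice (median 804 CPM), and 5 of the 7 transgenic mice lay under the WT median. The log2 fold changes of the members ran from -0.28 ± 0.32 (SE, Cnp) to -0.60 ± 0.40 (Opalin), with a median of -0.47 and an adjusted p of 1.00 for each. By edgeR, 0 of 9 members had an adjusted p under 0.05 (0% of all genes), and 0 of 9 an unadjusted p under 0.05 (3.96% of all genes). Without the 4 mice aged 77 days, 3 CYFIP1 OE mice remained in this line and the median was -0.38. Of the 8 WT mice of this line, 7 belonged to the 1 name group that holds no CYFIP1 OE mouse, so name group and genotype cannot be told apart there.

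In the line labelled 3 the values lay closer to 0. Mbp ran from 488 to 2744 CPM in the 8 WT mice (median 834 CPM) and from 393 to 1714 CPM in the 8 CYFIP1 OE mice (median 777 CPM). For Opalin, Mal, Mag, Cnp and Mobp the median was higher in the CYFIP1 OE mice of this line than in its WT mice. For Cldn11 it was 104 CPM in both. Each fitted fold change was still below 0, and WT 1 was the highest WT mouse of this line for every member. The fitted log2 fold changes ran from -0.079 ± 0.36 (SE, Mag) to -0.26 ± 0.39 (Mog), with a median of -0.19 and adjusted p between 0.899 and 0.973. By edgeR, 0 of 9 members had an adjusted p under 0.05 (0% of all genes) and 0 of 9 an unadjusted p under 0.05 (7.93% of all genes). Without CYFIP1 OE 1 the median was -0.053 and 7 of 9 values were below 0. With the name group as a term, in the name groups of this line that hold both genotypes, the median was -0.20.

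**Figure D4:**
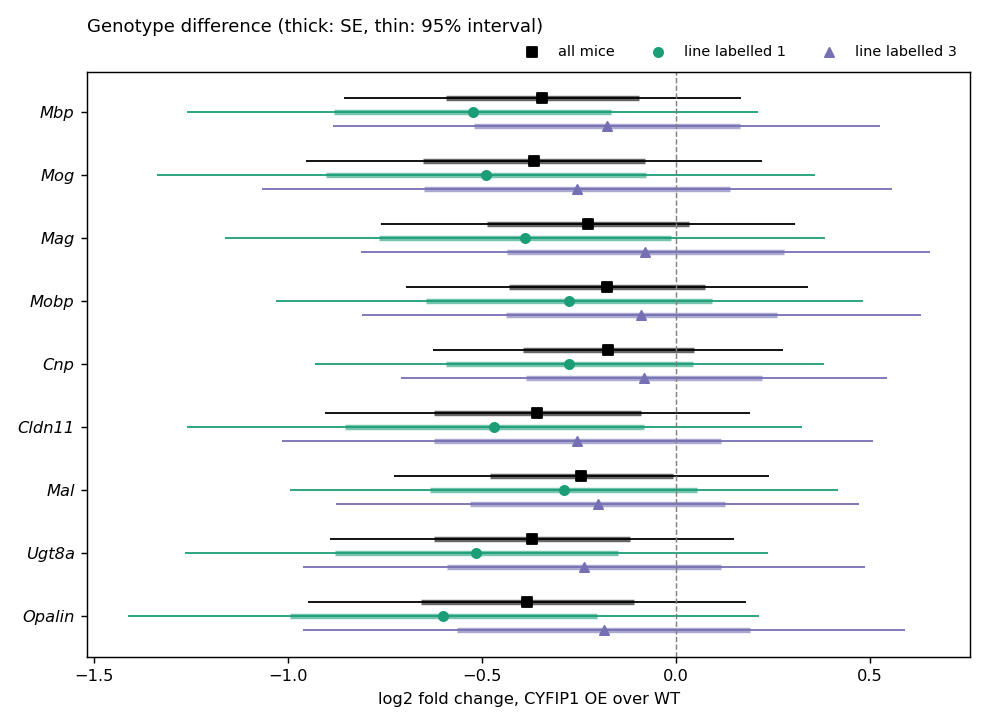
log2 fold change of CYFIP1 OE over WT for each myelin gene in all mice (black squares), the line labelled 1 (green circles) and the line labelled 3 (purple triangles), with thick bars for the SE and thin bars for the 95% interval. All points lie below 0, every 95% interval crosses 0, and the intervals of the lines overlap for each gene.

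The difference between the lines was tested as an interaction. The genotype effect in the line labelled 3 minus that in the line labelled 1 was above 0 for all 9 members, from 0.087 ± 0.47 (SE, Mal) to 0.41 ± 0.54 (Opalin) on the log2 scale, with adjusted p between 0.907 and 0.980. By edgeR, 0 of 9 members passed an adjusted p of 0.05 (0% of all genes) and 0 of 9 an unadjusted p of 0.05 (8.1% of all genes). The interval for Mbp reached from -0.66 to 1.35, so a difference between the lines of more than 1 log2 unit was within it. The median over the members was 0.23, against 0.39 without CYFIP1 OE 1. Without the mice aged 77 days it was 0.18, with 8 of 9 members above 0 and Mal at -0.062.

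The lines themselves were compared in WT mice. The log2 difference of the line labelled 3 from the line labelled 1 ran from -0.31 ± 0.35 (SE) for Ugt8a to 0.053 ± 0.33 for Mal, with a median of -0.18 and 7 of 9 values below 0. By edgeR, 0 of 9 members had an adjusted p under 0.05 (0% of all genes), and 0 of 9 an unadjusted p under 0.05 (4.41% of all genes).

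Sex gave no called member either. The members' sum ran from 735 to 3029 CPM in the 16 females (median 1817 CPM) and from 889 to 5140 CPM in the 15 males (median 1598 CPM), so that the males held the highest mouse and the lower median. The fitted male minus female log2 difference had a median of 0.14 and was above 0 for 8 of 9 members, Ugt8a being the exception at -0.031 ± 0.25 (SE). By edgeR, 0 of 9 members had an adjusted p under 0.05 (0.0631% of all genes) and 0 of 9 an unadjusted p under 0.05 (4.62% of all genes). The median was 0.52 in WT mice alone. With each mouse left out in turn it was 0.014 to 0.21, the lowest being without WT 1.

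Other genes of oligodendrocytes and myelin, taken from a list of 38, moved with the members. The mean standardized level of the list had an r of 0.98 and a rho of 0.98 with that of the members over the 31 mice (r 0.98 without the 2 mice farthest from the median), and 37 of its 38 genes had an r above 0, with a median of 0.88. Tppp, a tubulin-binding protein found in oligodendrocytes, was the exception at an r of -0.020, and varied only from 114 to 173 CPM. For genotype, 37 of the 38 genes had a log2 fold change below 0 (51.3% of all genes), with a median of -0.27. Of the 38, 0 had an adjusted p under 0.05. Because the list moved with the members, these signs are not separate observations from theirs. The smallest unadjusted p belonged to Car2, a carbonic anhydrase, at -0.35 ± 0.16 (SE), Gsn, the actin-severing protein gelsolin, at -0.49 ± 0.23, Hapln2, a link protein of nodes of Ranvier, at -0.63 ± 0.31, and Myrf, the transcription factor that drives myelin genes, at -0.47 ± 0.24, each with an adjusted p of 0.999.

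Among all tested genes outside the members, 19 of 17419 had an r above 0.9 with their score and 74 an r above 0.8. Of the 10 highest, 9 were Ermn (0.96), which codes for an actin-binding protein of myelin, Tmem88b (0.96), Qdpr (0.96), a pteridine reductase, Bcas1 (0.95), Trf (0.95), the iron carrier transferrin, Lpar1 (0.95), a lysophosphatidic acid receptor, Plekhb1 (0.94), Qk (0.92), an RNA-binding protein of glia, and Cryab (0.92), a small heat shock protein. Of the 10, 7 were on the list of 38, and Qdpr, Lpar1 and Plekhb1 were not. All 10 had a log2 fold change by genotype below 0, between -0.19 and -0.41, with an adjusted p of 0.999 each. They were picked by their r with the score, so these signs are not separate from those of the members.

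Earlier stages of the lineage followed the members less closely. In a list of 11 genes of oligodendrocyte precursors and newly formed oligodendrocytes, the r of the list's mean with the members' score was 0.55 (rho 0.52). Of its single genes, 10 of 11 had an r above 0, with a median of 0.24. The highest, 0.78, was that of Enpp6, an enzyme of newly formed oligodendrocytes. Pdgfra, the growth factor receptor that marks precursors, had an r of 0.13 and ran only from 7.96 to 21.1 CPM, and Cspg4, another precursor marker, had an r of -0.34. The r of the list's mean with the members was 0.88 among WT mice and 0.11 among CYFIP1 OE mice, a difference that was not tested. For genotype, 9 of the 11 genes had a log2 fold change below 0 (51.3% of all genes), with a median of -0.11, and 0 were called. Genes of 1 list share the same punches, so their signs are not separate observations.

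Genes of cholesterol synthesis, whose product is a main lipid of myelin, did not follow the members. Over 14 such genes the median r was -0.13, and the r of their mean was -0.27 over all mice, -0.80 in the line labelled 1 and 0.13 in the line labelled 3. For genotype, 12 of 14 had a log2 fold change below 0 (51.3% of all genes), with a median of -0.082, and 0 were called. These signs too come from the same punches and are not separate observations. Lss, lanosterol synthase, had the smallest unadjusted p, at -0.41 ± 0.14 (SE) and an adjusted p of 0.999.

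Markers of other cells in the punch moved with the members to differing degrees. For 5 genes of glutamatergic neurons of the basolateral amygdala the r of the list's mean with the members' score was -0.74 (rho -0.76, and -0.73 without the 2 farthest mice), and all 5 genes had an r below 0. Among WT mice it was -0.69, and among CYFIP1 OE mice -0.83. Their sum ran from 50.7 to 685 CPM in WT mice and from 80.8 to 1259 CPM in CYFIP1 OE mice, and Rspo2 was at 0 in 1 mouse. For 5 general neuronal genes the r was -0.76 (rho -0.80), with sums of 1713 to 2803 CPM in WT mice and 1574 to 2936 CPM in CYFIP1 OE mice. The 3 neurofilament genes of large axons had an r of 0.63 (rho 0.67), the 3 genes of inhibitory neurons 0.59 (rho 0.64) and 6 tested genes of striatal projection neurons 0.36 (rho 0.39, and 0.19 without the 2 farthest mice). The striatal sums ran from 234 to 5000 CPM in WT mice and from 271 to 5577 CPM in CYFIP1 OE mice, and Drd2 of that list was at 0 in 20 mice and not tested. The part of these cell markers, and of the placement of the punch, in the levels of the myelin genes was not tested.

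Among non-neuronal cells other than oligodendrocytes, the r of the list's mean with the members' score was 0.58 for 9 astrocyte genes (rho 0.56), 0.53 for 9 microglial genes (rho 0.49), 0.17 for 5 endothelial genes (rho 0.11) and 0.15 for 4 choroid plexus genes (rho 0.076). Astrocyte sums differed little between mice, from 2667 to 3326 CPM in WT and from 2610 to 3299 CPM in CYFIP1 OE mice. Choroid plexus sums ran from 19.5 to 8397 CPM in WT and from 40.1 to 4718 CPM in CYFIP1 OE mice.

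**Figure D5:**
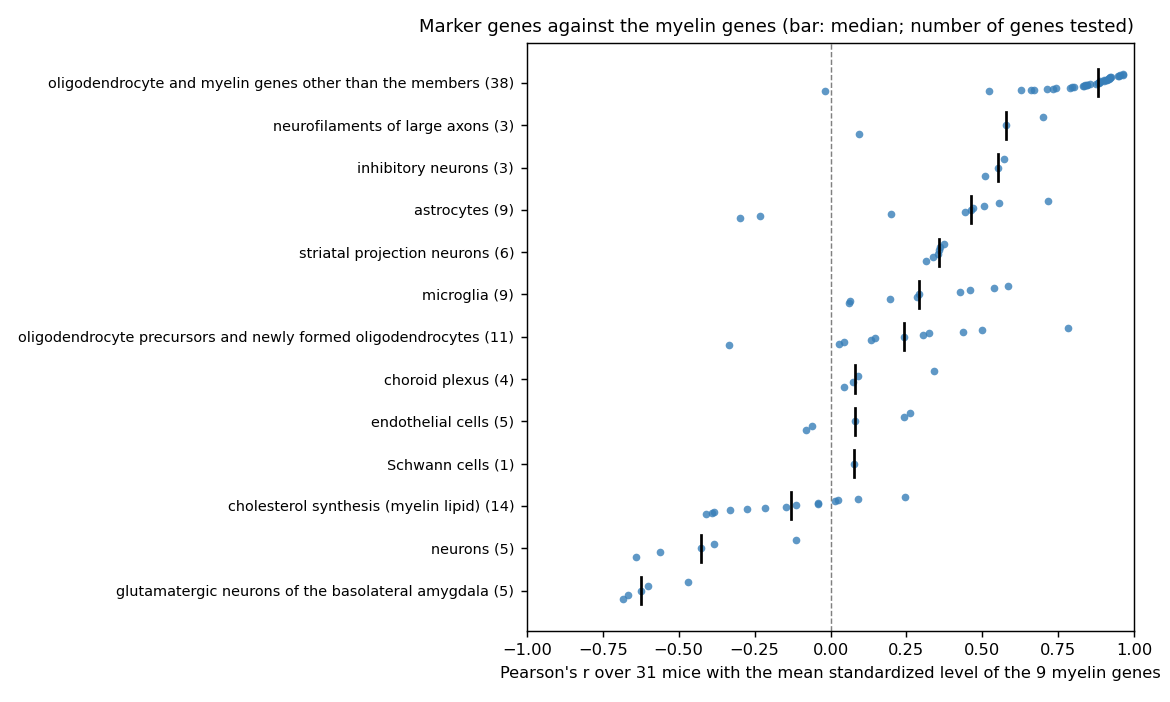
Pearson's r over 31 mice between the log2 CPM of each marker gene and the mean standardized level of the 9 myelin genes, by list, with a bar at the median of the list and the number of genes tested in brackets. Of the other oligodendrocyte and myelin genes, 37 of 38 lie above 0.5 (median 0.88), the precursor genes around a median of 0.24, and the neuronal and amygdala genes below 0.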

How the data were processed

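RNA from BLA punches of 31 mice was sequenced by QuantSeq 3′ Fwd. The authors aligned to GRCm38 with STAR and used Salmon for gene expression, and what they deposited are expected counts, 1 file a mouse, neither normalized nor filtered. Totals of 5286708 to 8685308 counts per mouse limit Opalin, Ugt8a and Mog, where counting error adds to the spread between mice.

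After rounding of the estimated counts, a gene was kept if 20% or more of the mice had 10 or more reads of it (17428 of 48709 genes). Symbols came from the GENCODE vM21 annotation of GRCm38. Genotype was tested with edgeR 4.0.16 (R 4.3.3) by the quasi-likelihood F test after TMM scaling, two-sided, with sex and line as terms. A second fit nested genotype in line and gave the effect in each line, their difference and the line difference in WT mice. P-values were adjusted over all genes tested by the method of Benjamini and Hochberg. Each mouse was 1 replicate. The authors' model also had 5 sequencing principal components, whose inputs were not used here, and an alternative used 5 surrogate variables (sva 3.50.0) in their place. DESeq2 1.42.0 was another alternative. For edgeR, the SE was taken as the absolute log2 fold change divided by the square root of F. Intervals of 95% used this SE and the t distribution with 27 (first fit) or 26 (nested fit) degrees of freedom. They are therefore approximate and need not match the p-values exactly.

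CPM values are TMM-scaled. Spread, correlations and scores used log2 CPM (prior count 2), and the score is the mean of the members' standardized values (numpy 2.4.6, pandas 2.3.3). The members, marker lists and tests were chosen with earlier results of these data known. Outside the members, genes were named by rule: up to 4 of a list with the smallest p for genotype, and the 10 with the highest and 5 with the lowest r with the score. Of the former, 1 is not reported here. Tppp, Pdgfra, Cspg4, Drd2, Rspo2 and the peripheral markers were named after their values were seen. Promoter sequences came from RefSeq (GRCm38.p6). The fits were tested on simulated data.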

Additional observations from a re-analysis of the deposited data

Results flagged for a closer look

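In groups of 7 or 8 mice of 1 genotype and 1 line, a mouse was singled out where its gap to the nearest other mouse was large against the range of the group (Dixon's criterion at 95%). Of the 36 combinations of a member and a group, 1 met it: Opalin in WT 1, at 51.6 CPM against 8.67 to 27.4 CPM in the other 7 WT mice of the line labelled 3. The gap was 0.563 of the range, against a critical value of 0.526. The gap and range were those of CPM, not of log2 CPM, and the flag can depend on that scale. For normally distributed values, chance flags about 1 in 20 such groups. WT 1 had the highest value of all 31 mice for each of the other 8 members too.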

How the results depend on the processing

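The 19 results were recomputed under 446 alternatives (other tests, scalings, filters, terms and subsets, and each mouse left out), of which 439 kept direction and side of the threshold. The 7 exceptions all came from adding 5 surrogate variables, where the genotype log2 fold change turned above 0 for Mog (0.050), Mag (0.074), Mobp (0.13), Cnp (0.079), Cldn11 (0.089), Mal (0.060) and Opalin (0.080), and the cause was not tested. No member had an adjusted p under 0.05 in any alternative. With each mouse left out in turn, the genotype log2 fold change was -0.45 to -0.20 for Mbp, -0.29 to -0.047 for Cnp and -0.31 to -0.044 for Mobp, the value nearest 0 being that without WT 1 in each. In single genes with few reads (24 at the lowest for Opalin), depth limits the precision. The replicate numbers pair no mice, so single mice were not compared in pairs. With the name group as a term, in the 18 mice of name groups with both genotypes, the members' median for genotype was -0.32 (0 of 9 called).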

Other observations

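The genes whose levels ran most opposite to the myelin genes over the 31 mice were Rnf165 (r -0.85), Ccn3 (-0.83), Dgkz (-0.80), Mpped1 (-0.80) and Lmo4 (-0.80), and 246 of the 17419 genes outside the members had an r below -0.6. Ccn3, a secreted matrix protein, ran from 0.812 to 40.3 CPM, and Mpped1 from 14.2 to 105 CPM. By genotype the log2 fold change of these 5 genes was between 0.0024 and 0.48, with an adjusted p of at least 0.999 by edgeR.

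By edgeR for genotype, 2 of 9 astrocyte and 1 of 9 microglial genes had an unadjusted p under 0.05. So did 1 of 5 general neuronal and 2 of 4 choroid plexus genes, against 4.3% of all genes. The endothelial, inhibitory, striatal and glutamatergic lists held 0 such genes. In all of these lists, 0 genes had an adjusted p under 0.05. Tmem119, a microglial surface protein, had a log2 fold change of 0.48 ± 0.17 (SE), Aldoc, an astrocytic aldolase, 0.22 ± 0.092, and Tubb3, a neuronal tubulin, 0.21 ± 0.075. S100b, also on the astrocyte list, had 0.31 ± 0.15. In these lists, 5 of 9 astrocyte, 3 of 9 microglial and 2 of 5 general neuronal genes had values below 0. The 4 choroid plexus genes all had values below 0, with a median of -0.99, among them Kl at -1.08 ± 0.46 and Clic6 at -0.83 ± 0.37. Their sum had the higher median in CYFIP1 OE mice, 427 CPM against 307 CPM in WT mice, while WT mice held the highest sum, 8397 CPM. Within lines the CYFIP1 OE median was the lower, at 91.4 against 114 CPM (line labelled 1) and 492 against 1137 CPM (line labelled 3). The 6 tested genes of striatal projection neurons had a median of -0.77 in the line labelled 1 and 0.69 in the line labelled 3. All 6 had an unadjusted p under 0.05 for the difference between the lines, against 8.1% of all genes, with 0 of them called after adjustment. They were measured in the same punches, so these are not 6 separate observations.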
